A study of Mus musculus and Acomys cahirinus with 84 samples.

Results

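The measurements described here are of skin fibroblasts from mice labelled C56BL6, collected 24 h after 20 Gy of gamma irradiation, set against untreated fibroblasts of the same animals. They comprise 8 of the 84 libraries of the series, 4 at 20 Gy and 4 untreated, chosen by their labels and paired by replicate number. The labels describe primary skin fibroblasts, polyA RNA taken with a PureLink kit and stranded mRNA libraries, and put these libraries in a single batch, B1. The library names carry 1 animal code for each replicate number, so each pair holds irradiated and untreated cells of 1 animal, and the spread between pairs is a spread between 4 animals. No allele, transgene or drug is named for any group, and the sex, age and passage of the cells are not given in the labels of these libraries. The series also holds 10 Gy libraries of the same animals, libraries of the same animals 12 d after irradiation (batch B2), and matching sets from wild mice and from the African spiny mouse, A. cahirinus, which are used below only where they show how the 20 Gy response at 24 h differed. At 12 d some untreated libraries are labelled passaged, and those were not used.

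Gamma rays break DNA, and the kinase ATM, activated at the breaks, stabilises the transcription factor p53. In fibroblasts p53 is best known for raising the CDK inhibitor p21, encoded by Cdkn1a, which holds the RB family in the form that represses genes of DNA replication and mitosis. It also raises its own inhibitor Mdm2, genes of cell death and genes of repair, while cells that stay arrested for many days take on a secretory, senescent state.

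The total count per library was 27.9 to 32.8 M untreated and 28.4 to 39.8 M at 20 Gy, and 3 counts, taken as the detection floor, corresponded to 0.0753 to 0.108 counts per M (CPM). The fibroblast identity given in the labels was checked with 10 fibroblast markers, of which 8 had a mean of at least 1 CPM. Col1a1, a fibrillar collagen chain, lay at 5693 to 9614 CPM in the 8 libraries, while Fap and Lum stayed below 1 CPM in each of them. Libraries of replicate 1 stood apart from the others at each dose. They held keratinocyte markers that were near 0 elsewhere, the basal keratins Krt14 at 247 CPM untreated and 167 CPM at 20 Gy, and Krt5 at 138 CPM and 96.6 CPM. The desmosomal gene Dsp was at 80.8 and 75.5 CPM there and at most 1.29 CPM in the other replicates, and Krt15 and Dsg3 were higher there too, at 2.31 and 3.43 CPM and at 1.79 and 0.720 CPM. Of the 10 markers of the list, Epcam and Krt1 were at or near 0 in each library. Over the 8 libraries Krt10 lay at 0.912 to 1.458 CPM, Cdh1 at 0.123 to 0.689 CPM and Trp63 at 0 to 0.4115 CPM. The summed level of 10 keratinocyte markers ranged from 1.51 to 472 CPM untreated and from 2.46 to 345 CPM at 20 Gy, and none of its 3 tested members was called. Among 7 further marker lists, that of pericytes and smooth muscle had 2 of 6 tested genes called higher and 1 lower. Its summed level was 201 to 543 CPM untreated and 220 to 533 CPM at 20 Gy. In the skeletal muscle list the 1 tested gene, Acta1, was called higher. It made up nearly all of the summed level, 82.7 to 180 CPM untreated and 96.5 to 260 CPM at 20 Gy. The other 6 markers of that list had at most 3 counts in every library. The adipocyte list had 1 of 2 lower, and those of endothelial cells, macrophages and leukocytes, melanocytes and Schwann cells had none. Shares over all genes tested were 8.2% higher and 9.45% lower. Xist, the RNA of the inactive X chromosome, was at 383 to 437 CPM in both libraries of replicates 1 and 2 and at most 0.216 CPM in those of replicates 3 and 4, and the Y-linked gene Ddx3y was at 0 in the former and at 78.9 to 109 CPM in the latter, the same within each pair. The part of this keratinocyte signal in any result was not tested. The number of genes called in each comparison, and the gene list counts at 20 Gy against untreated, were recomputed without replicate 1. Other counts, such as the list counts of the other comparisons, were not.

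Irradiation at 20 Gy shifted many transcripts by small amounts. Within animals, 2563 of 14526 tested genes (17.6%) passed an adjusted p of 0.05, 1191 higher (8.2%) and 1372 lower (9.45%). The median change of the genes called higher was 0.38 on the log2 scale and that of the genes called lower was -0.30. At least 2-fold changes were seen for 143 genes called higher and 84 called lower. Of the called genes, 1117 were higher and 1274 were lower in 4 of 4 pairs. The 4 libraries of one group lay wholly above or below those of the other for 927 tested genes (6.38%), 679 of them called. When the replicate number was left out of the model, so that differences between animals entered the error, 13 genes passed (0.0895%), 12 higher (0.0826%) and 1 lower (0.00688%), and 1426 had an unadjusted p under 0.05. The count ranged from 1235 (without replicate 3) to 3194 (without replicate 1) when each replicate number was left out in turn, and 506 of the genes called higher and 566 of those called lower were called in each of those 4 fits. In a principal component analysis of the 12 libraries at 0, 10 and 20 Gy, the first component (49.6% of the variance) set replicate 1 apart, the second (18.3%) set replicate 2 apart, and component 3 (10.3%) separated the untreated libraries, at -26.19 to -19.73, from the irradiated ones, at 1.69 to 19.75.

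The 12 genes that rose whether or not the pairing was used were Mdm2, Pidd1, Eda2r, Exoc4, Gtse1, Ddias, Dcxr, Igsf9b, Gm35940, Insyn2a, Alox5 and Rph3a, and the 1 that fell was Sspn. Mdm2 encodes the ubiquitin ligase that degrades p53, Pidd1 a death-domain scaffold and Eda2r a receptor of the tumour necrosis factor family. Sspn, which encodes sarcospan of the dystrophin complex, was at 42.8, 45.9, 43.6 and 46.9 CPM in untreated replicates 1 to 4 and at 31.9, 32.3, 27.7 and 29.1 CPM at 20 Gy. Every irradiated library lay below every untreated one (log2 change -0.57, SE 0.06, adjusted p = 2.99e-05, and 0.033 without the pairing). Alox5, which encodes a lipoxygenase of leukotriene synthesis, was at 0.0689, 0.0629, 0.146 and 0.0616 CPM untreated, which is close to the floor of 3 counts, and at 0.823, 0.521, 0.787 and 1.35 CPM at 20 Gy. The untreated level was too low for a fold to be given. Rph3a was likewise between 0.0308 and 0.0729 CPM untreated and between 0.349 and 0.651 CPM at 20 Gy. Insyn2a was between 0.189 and 0.241 CPM untreated and between 0.753 and 1.303 CPM at 20 Gy. Alox5, Rph3a and Insyn2a passed the expression filter only through the 20 Gy libraries, where they are high, so their calls are weaker support than those of the other genes.

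**Figure D1:**
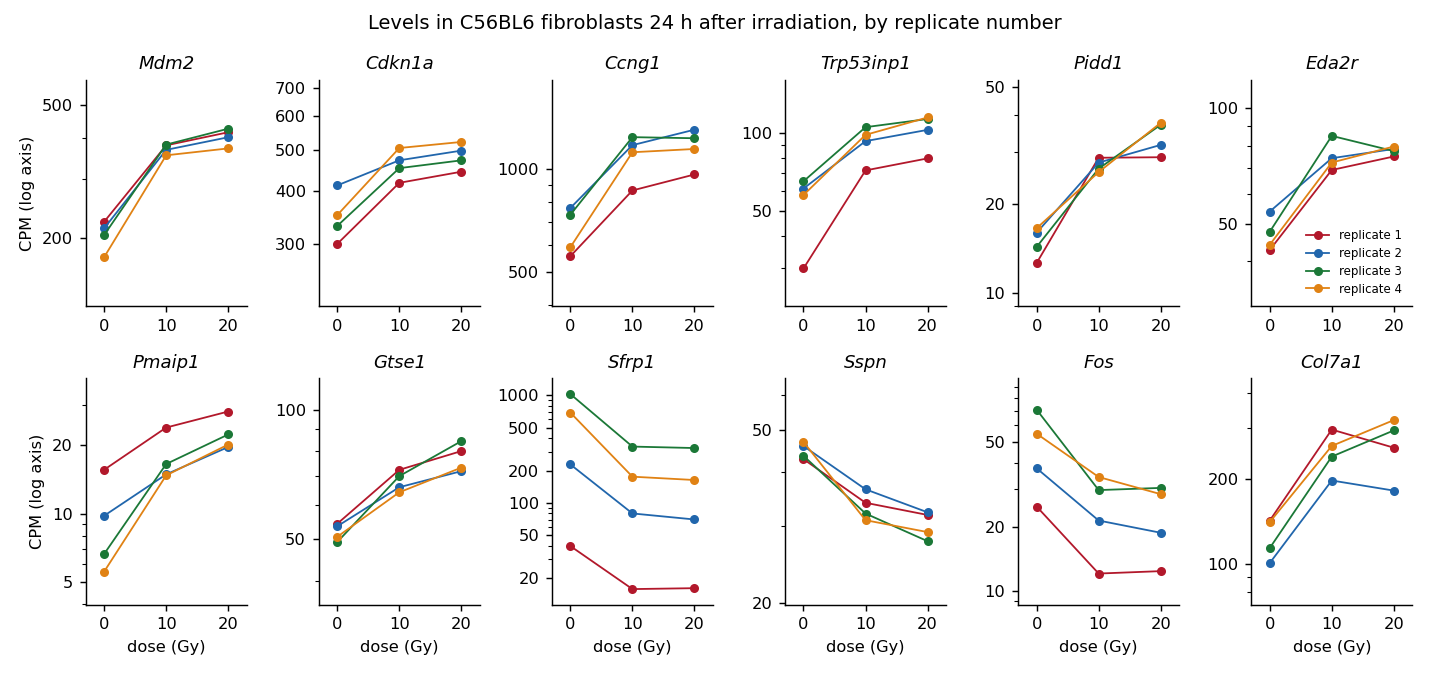
Level of 12 genes in each library (CPM, log axis) against dose (0, 10 and 20 Gy), with a line for each replicate number. The untreated and 20 Gy libraries did not overlap for Mdm2, Cdkn1a, Pidd1, Eda2r, Gtse1, Col7a1 or Sspn, whereas Sfrp1 and Fos fell in each pair across animals whose levels differed widely.

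The p53 pathway held the largest share of genes called higher. Of 16 tested genes of p53 feedback and arrest, 9 rose and 1 fell (median log2 change 0.27), of 16 tested p53 targets of cell death 10 rose and 1 fell (median 0.26), and of 20 tested p53 targets of metabolism and repair 9 rose and 1 fell (median 0.07), beside 8.2% higher, 9.45% lower and a median of -0.0036 over all genes tested. These lists were drawn up with earlier results of these data known. Mdm2 (ENSMUSG00000020184, GRCm39 chr10:117524780-117546663, minus strand) was at 224, 214, 205 and 176 CPM in untreated replicates 1 to 4 and at 415, 401, 425 and 371 CPM at 20 Gy. The groups did not overlap, and the change was 0.98 (SE 0.05, adjusted p = 8.86e-08). Ccng1, a p53-induced cyclin that recruits a phosphatase to Mdm2, was at 557, 770, 736 and 591 CPM untreated and at 965, 1305, 1232 and 1146 CPM at 20 Gy. Each irradiated library was above the highest untreated one (log2 change 0.81, SE 0.05, adjusted p = 3.17e-07). Trp53inp1, whose product promotes p53 phosphorylation, was at 29.96, 61.1, 65.2 and 57.7 CPM untreated and at 80.0, 103, 114 and 115 CPM at 20 Gy, again without overlap (log2 change 0.98, SE 0.08, adjusted p = 5.37e-06).

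Cdkn1a, the gene of the CDK inhibitor p21 (GRCm39 chr17:29309950-29319701, plus strand), rose less. It was at 301, 413, 331 and 351 CPM untreated and at 444, 498, 472 and 522 CPM at 20 Gy, with the lowest irradiated library above the highest untreated one. The change was 0.48 on the log2 scale (SE 0.05, adjusted p = 6.01e-05, and 0.17 without the pairing). Gdf15, a stress-induced cytokine of the TGF-beta superfamily, was at 14.6, 15.3, 15.6 and 13.4 CPM untreated and at 21.4, 20.7, 35.2 and 25.9 CPM at 20 Gy, with replicate 3 the highest (log2 change 0.78, SE 0.10). Trp53 itself was not called: it lay between 104 and 128 CPM untreated and between 121 and 135 CPM at 20 Gy (log2 change 0.10, SE 0.05, adjusted p = 0.181). Gadd45a, a growth arrest gene induced by DNA damage, was the 1 gene of its list that fell, with a log2 change of -0.22 (SE 0.07, adjusted p = 0.0413), a call lost without replicate 2, 3 or 4 (largest adjusted p = 0.237).

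Among the death genes, Pmaip1, which encodes the BH3-only protein NOXA, was at 15.6, 9.78, 6.63 and 5.54 CPM untreated and at 28.2, 19.7, 22.3 and 20.2 CPM at 20 Gy. Replicate 1 was highest in both groups, and the groups did not overlap (log2 change 1.33, SE 0.14, adjusted p = 2.99e-05). Pidd1 was at 12.6, 15.97, 14.3 and 16.5 CPM untreated and at 28.8, 31.7, 37.1 and 37.7 CPM at 20 Gy (log2 change 1.19, SE 0.07). Eda2r was at 42.8, 53.9, 47.8 and 44.2 CPM untreated and at 74.99, 78.4, 77.5 and 79.6 CPM at 20 Gy (log2 change 0.72, SE 0.06). Neither gene had overlapping groups. The 1 death-list gene that fell was Ackr3, a scavenging receptor of the chemokine Cxcl12, with a log2 change of -0.47 (SE 0.07). In the metabolism and repair list the largest rises were those of Exoc4, a subunit of the exocyst, at 0.60 (SE 0.05), of the mitochondrial proline-catabolic enzyme gene Aldh4a1 at 0.54 (SE 0.07) and of Polk, a translesion DNA polymerase, at 0.52 (SE 0.06). Dram1, a lysosomal regulator of autophagy, fell by 0.27 (SE 0.07), and its call was lost without replicate 3 or 4 (largest adjusted p = 0.166). Without the pairing, 1 gene of each list apart from the death list, which kept 2, still passed.

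A search of promoter sequences put a few of these responses beside a p53 element. The promoters are RefSeq windows of GRCm38.p6, 250 bases before to 50 after an annotated start, so their coordinates are not those of the counted genes. The p53 response element was searched as 2 half-sites of 10 bases with no spacer, with the 4 core letters C and G intact and at most 2 mismatches elsewhere. Its consensus is its own reverse complement, so 1 search reads both strands. A match was present in 0.392% of 27025 genes with a promoter in the table, in 0.451% of the tested genes, in 10 of 890 genes called higher (1.12%) and in 3 of 1045 called lower (0.287%). The 10 were Cd80, Gria4, Pid1, Stox2, Ccng1, Ckap2, Gtse1, Cdkn1a, Capg and Zfp365, and the 3 were Ppp2ca, Gpam and Arhgef10l; they are listed because they hold the match, not by the size of their change. Gria4 was not called without replicate 3 or 4, Ppp2ca not without 1, 3 or 4, and Gpam and Arhgef10l not without 2, 3 or 4. A match is a likeness of letters and no evidence of binding, and only 2 of 24 genes called higher in the p53 lists had one in this window.

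The promoters of 5 matched genes that rose are printed because they include the canonical p21 gene and genes described below, with the matched element in capitals.
Ccng1 (chr11:40755237-40755536, minus strand): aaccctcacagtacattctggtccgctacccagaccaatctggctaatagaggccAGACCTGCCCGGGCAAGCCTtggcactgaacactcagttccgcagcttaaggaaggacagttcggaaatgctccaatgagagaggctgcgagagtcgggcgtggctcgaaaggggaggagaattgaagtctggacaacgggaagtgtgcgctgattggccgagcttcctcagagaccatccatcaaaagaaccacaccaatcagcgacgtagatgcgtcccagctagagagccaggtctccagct
Cdkn1a (chr17:29090729-29091028, plus strand): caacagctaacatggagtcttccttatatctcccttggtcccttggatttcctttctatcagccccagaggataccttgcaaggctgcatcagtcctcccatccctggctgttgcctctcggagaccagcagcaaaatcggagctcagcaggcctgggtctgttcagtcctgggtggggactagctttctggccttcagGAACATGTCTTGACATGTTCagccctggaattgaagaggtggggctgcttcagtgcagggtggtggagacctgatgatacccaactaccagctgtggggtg
Gtse1 (chr15:85859696-85859995, plus strand): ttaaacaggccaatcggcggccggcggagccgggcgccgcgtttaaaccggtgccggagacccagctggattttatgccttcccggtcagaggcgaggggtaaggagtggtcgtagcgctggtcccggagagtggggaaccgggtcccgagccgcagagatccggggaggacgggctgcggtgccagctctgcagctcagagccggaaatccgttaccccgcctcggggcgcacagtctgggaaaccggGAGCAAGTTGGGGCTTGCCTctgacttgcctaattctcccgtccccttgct
Cd80 (chr16:38458683-38458982, plus strand): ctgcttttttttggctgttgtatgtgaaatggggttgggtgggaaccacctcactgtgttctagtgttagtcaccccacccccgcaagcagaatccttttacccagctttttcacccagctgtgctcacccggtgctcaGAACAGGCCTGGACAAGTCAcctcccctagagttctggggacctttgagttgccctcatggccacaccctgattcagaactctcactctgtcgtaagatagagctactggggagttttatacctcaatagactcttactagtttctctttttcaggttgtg
Ckap2 (chr8:22185770-22186069, minus strand): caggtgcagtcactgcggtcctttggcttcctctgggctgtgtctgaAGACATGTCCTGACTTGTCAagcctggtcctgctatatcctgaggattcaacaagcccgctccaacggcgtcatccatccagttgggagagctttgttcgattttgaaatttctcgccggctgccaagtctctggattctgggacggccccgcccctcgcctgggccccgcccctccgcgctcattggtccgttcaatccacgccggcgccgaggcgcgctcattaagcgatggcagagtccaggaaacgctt
The element began 195 bases before the annotated start in Ccng1, 51 before it in Cdkn1a, 1 before it in Gtse1, 111 before it in Cd80 and 203 before it in Ckap2. It departed from the consensus at 1 position in Ccng1, Cdkn1a and Gtse1 and at 2 in Cd80 and Ckap2.

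Of these, Cd80, the T-cell costimulatory ligand, changed most. It was at 9.37, 12.7, 21.3 and 17.03 CPM in untreated replicates 1 to 4 and at 22.1, 34.02, 60.3 and 57.02 CPM at 20 Gy. The animals kept the same order at both doses and the groups did not overlap (log2 change 1.49, SE 0.08, adjusted p = 8.86e-08). Gtse1, whose product binds p53 in the G2 phase, was at 54.3, 53.5, 49.2 and 50.6 CPM untreated and at 80.1, 72.0, 84.5 and 73.3 CPM at 20 Gy, without overlap (log2 change 0.58, SE 0.06).

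**Figure D2:**
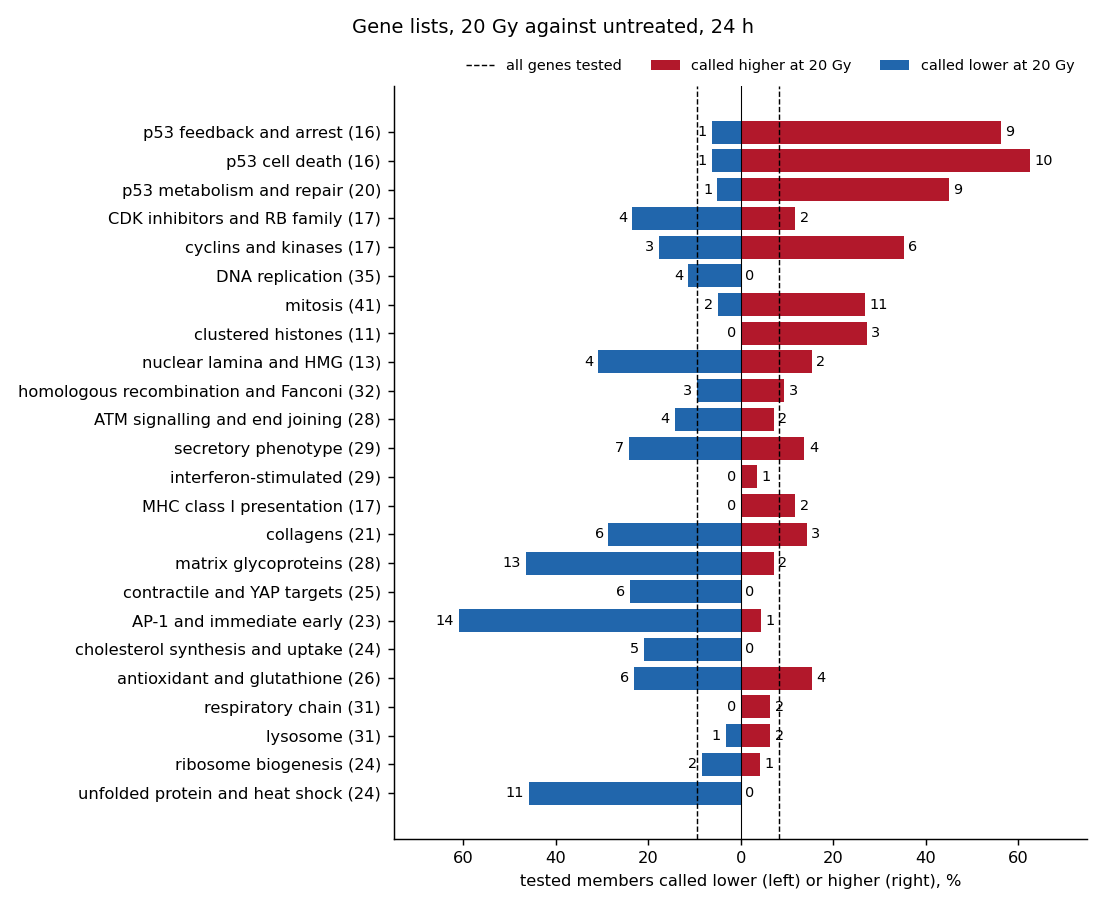
Percent of tested members of each of 24 gene lists called lower (left, blue) or higher (right, red) at 20 Gy against untreated, with the count at each bar and the number tested in brackets; dashed lines mark all genes tested, 8.2% higher and 9.45% lower. The 3 p53 lists reach furthest to the right, and the AP-1, matrix glycoprotein and unfolded protein lists furthest to the left.

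Genes of the cell division cycle did not fall together at 20 Gy. Of 41 tested genes of mitosis, 11 rose and 2 fell (median log2 change 0.10), and of 17 tested cyclins and cyclin-dependent kinases 6 rose and 3 fell (median 0.17). Of 35 tested genes of DNA replication, 0 rose and 4 fell (median -0.04), beside 8.2% higher and 9.45% lower of all genes tested. No member of these 3 lists passed without the pairing. The counts also moved with single animals: mitosis had 24 higher and 2 lower without replicate 1, but 6 and 2, 4 and 0, and 7 and 1 without replicates 2, 3 and 4. Replication had 8 higher and 2 lower without replicate 1, and 0 and 2 without replicate 3. The cyclins and kinases had 4 and 1, 3 and 0, and 4 and 0 without replicates 2, 3 and 4. Calls over all genes tested moved too. They numbered 1540 higher and 1654 lower without replicate 1, beside 1191 and 1372 with no replicate left out. Without replicates 2, 3 and 4 they numbered 953 and 1045, 588 and 647, and 650 and 725. Ckap2, a spindle microtubule-binding protein, was at 56.8, 47.3, 66.1 and 52.5 CPM untreated and at 76.9, 86.9, 117 and 99.2 CPM at 20 Gy, without overlap (log2 change 0.77, SE 0.07, adjusted p = 7.4e-06). Ube2c, the ubiquitin-conjugating enzyme that works with the anaphase-promoting complex, was at 59.7, 41.4, 53.8 and 49.9 CPM untreated and at 62.4, 66.2, 73.2 and 70.3 CPM at 20 Gy (log2 change 0.42, SE 0.08, adjusted p = 0.00179). Aurka, a kinase of the spindle poles, had a log2 change of 0.38 (SE 0.06, adjusted p = 0.00099). In Ube2c and Aurka the irradiated libraries were all above the untreated ones.

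The 2 genes of the mitosis list that fell were Fbxo5, an inhibitor of the anaphase-promoting complex (log2 change -0.34, SE 0.08), and Smc4, a condensin subunit (-0.25, SE 0.05); without replicate 3 neither passed (adjusted p = 0.0611 and 0.0566), and Fbxo5 did not without replicate 4 (0.0711). Mki67, the marker of cycling cells, was at 228, 180, 245 and 233 CPM untreated and at 172, 182, 238 and 214 CPM at 20 Gy. The groups overlapped and the gene was not called (log2 change -0.14, SE 0.06, adjusted p = 0.131). Top2a, topoisomerase II alpha, was at 276, 194, 296 and 250 CPM untreated and at 251, 257, 314 and 270 CPM at 20 Gy, also with overlap (log2 change 0.12, SE 0.07, adjusted p = 0.264, and 0.0126 without replicate 1). Lmnb1, the lamin B1 gene whose loss marks senescent cells, overlapped as well (log2 change -0.09, SE 0.07, adjusted p = 0.39). In the replication list Mcm6, a subunit of the replicative helicase, fell from 139, 104, 116 and 109 CPM to 87.9, 90.3, 95.7 and 89.3 CPM, with every irradiated library below every untreated one (log2 change -0.36, SE 0.06, adjusted p = 0.00176). Tk1, thymidine kinase, fell by 0.33 (SE 0.08) and Pcna, the sliding clamp, by 0.30 (SE 0.08), the latter not past the threshold without replicate 1 or 3 (adjusted p = 0.0545 and 0.0734). The fourth was Chaf1b, a histone chaperone subunit, named here after its value was seen, which was not called without replicate 1, 2 or 3 (largest adjusted p = 0.124).

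Regulators of the G1 phase moved in both directions. Ccnd1, cyclin D1, was at 553, 578, 370 and 376 CPM untreated and at 685, 898, 639 and 670 CPM at 20 Gy, without overlap (log2 change 0.64, SE 0.07, adjusted p = 4.69e-05). Its partner kinase gene Cdk6 rose by a log2 change of 0.35 (SE 0.06). Of 17 tested CDK inhibitors and RB family genes, 2 rose and 4 fell, beside 8.2% higher and 9.45% lower of all genes tested. Rb1, the retinoblastoma protein gene, was at 18.4, 19.3, 23.6 and 21.99 CPM untreated and at 26.8, 28.3, 32.1 and 29.2 CPM at 20 Gy (log2 change 0.48, SE 0.06), without overlap. Its relative Rbl1, which encodes p107, fell by 0.37 (SE 0.06), and Cdkn1b, the p27 inhibitor gene, fell by 0.50 (SE 0.07). Cdkn2a, the locus of p16 and ARF, was at 50.8, 65.2, 33.5 and 32.3 CPM untreated and at 44.9, 56.2, 27.2 and 29.6 CPM at 20 Gy. It fell in each pair by a small amount while the groups overlapped (log2 change -0.20, SE 0.05, adjusted p = 0.0171), and its call was lost without replicate 2, 3 or 4 (largest adjusted p = 0.114). Without replicate 3 or 4 the CDK inhibitor and RB family list held 1 gene called higher and 2 called lower. Calls over all genes tested fell as well in those fits, to 1235 and 1375 from 2563.

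The chromatin lists moved in part. Of 11 tested clustered histone genes 3 rose and 0 fell (median 0.46): H2bc6 (log2 change 0.99, SE 0.14), H2bc4 (0.50, SE 0.09) and, named after its value was seen, H3c2 (1.15, SE 0.30), not called without replicate 1, 2 or 4 (largest adjusted p = 0.0737). Most mRNAs of this family lack a poly(A) tail, and these were polyA libraries. H2ax, the histone variant phosphorylated at DNA breaks, was at 20.6, 18.5, 20.9 and 21.96 CPM untreated and at 14.5, 15, 14.1 and 15.7 CPM at 20 Gy. The irradiated libraries were all lower (log2 change -0.47, SE 0.07, adjusted p = 0.000434). Among 28 tested genes of ATM signalling and end joining 2 rose and 4 fell, and among 32 of homologous recombination and the Fanconi pathway 3 rose and 3 fell, beside 8.2% higher and 9.45% lower of all genes tested. Mdc1, the adaptor that binds phosphorylated H2AX, had the largest called rise of the former (0.25, SE 0.05), and Fancg, of the Fanconi core complex, that of the latter (0.35, SE 0.09). Dna2, a nuclease of end resection, fell by 0.44 (SE 0.10). These 3 calls were lost on leaving out replicate 3 (Mdc1), replicate 4 (Dna2) or any of replicates 2 to 4 (Fancg), with adjusted p of 0.05198, 0.0635 and at most 0.0704. Without replicate 3 the ATM and end-joining list had 0 higher and 1 lower and without replicate 4 it had 1 and 1. The recombination list had 0 and 2, 0 and 1, and 1 and 0 without replicates 2, 3 and 4. Calls over all genes tested numbered 1998, 1235 and 1375 in those 3 fits, beside 2563 with no replicate left out. Hmga2, an architectural chromatin protein, rose by a log2 change of 0.34 (SE 0.06) and Hmgb1 fell by 0.37 (SE 0.06), in a list of 13 lamina and HMG genes with 2 higher and 4 lower.

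The extracellular matrix fell in part. Of 28 tested matrix glycoproteins and proteoglycans 13 fell and 2 rose (median log2 change -0.20), and of 21 collagens 6 fell and 3 rose (median -0.04). Over all genes tested, 9.45% fell and 8.2% rose. Eln, elastin, was at 3.24, 1.67, 1.97 and 2.495 CPM untreated and at 0.960, 0.347, 0.337 and 0.898 CPM at 20 Gy, without overlap (log2 change -1.90, SE 0.22, adjusted p = 5.84e-05). Fmod, the collagen-binding proteoglycan fibromodulin, was at 35.8, 45.5, 170 and 151 CPM untreated and at 24.9, 25.6, 98.2 and 72.9 CPM at 20 Gy. It fell in each pair, although the animals differed more from each other than the doses did (log2 change -0.82, SE 0.07, adjusted p = 4.78e-06, and 0.74 without the pairing). Dcn, decorin, showed the same spread: it was at 0.758, 25.6, 10.0 and 10.2 CPM untreated and at 0.754, 7.96, 4.21 and 5.04 CPM at 20 Gy, with no difference in replicate 1 and a fall in the other 3 pairs (log2 change -1.26, SE 0.15). Ltbp2, a microfibril protein of the latent TGF-beta binding family, rose by a log2 change of 0.55 (SE 0.07).

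Within the collagens the direction depended on the chain. Col7a1, which forms the anchoring fibrils of the dermis, was at 142, 101, 114 and 141 CPM untreated and at 256, 181, 295 and 320 CPM at 20 Gy, without overlap (log2 change 1.06, SE 0.08, adjusted p = 1.72e-06). Col6a2, a chain of the microfibrillar collagen VI, was at 302, 65.8, 131 and 138 CPM untreated and at 191, 43.5, 72.2 and 71.9 CPM at 20 Gy. It fell in each pair and the groups overlapped (log2 change -0.77, SE 0.06, adjusted p = 2.06e-06). Col14a1, a fibril-associated collagen, fell by 0.77 (SE 0.10) and Col8a2, a short-chain collagen, by 1.25 (SE 0.19). Of 8 tested fibroblast markers, 5 fell (Col3a1, Pdgfra, Dcn, Thy1 and Pdgfrb) and 0 rose, beside 9.45% lower and 8.2% higher of all genes tested. Col1a1 (log2 change -0.04, adjusted p = 0.729), Col1a2 (-0.11, adjusted p = 0.165) and Vim (0.11, adjusted p = 0.212) were not called. In bulk RNA, fewer cells of a kind and less RNA per cell cannot be told apart.

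Immediate early and stress genes made up the list with the largest share of lower calls. Of 23 tested AP-1 and immediate early genes 14 fell and 1 rose (median log2 change -0.33), and 12 of the list were called in each leave-one-out fit. Over all genes tested, 9.45% fell and 8.2% rose. Fos, an AP-1 subunit, was at 24.97, 37.7, 70.9 and 54.7 CPM untreated and at 12.4, 18.8, 30.5 and 28.5 CPM at 20 Gy. It fell in each of the 4 pairs, by 0.94 to 1.22 on the log2 scale of the paired CPM, while the groups overlapped (fitted change -1.04, SE 0.06, adjusted p = 2.99e-07, and 0.38 without the pairing). Ier2, another immediate early gene, was at 71.3, 61.5, 80.5 and 68.8 CPM untreated and at 46.2, 40.1, 50.3 and 50.1 CPM at 20 Gy, without overlap (-0.59, SE 0.05). Atf3, a stress-induced bZIP factor often raised by DNA damage, fell by 0.62 (SE 0.12), and Klf10, a TGF-beta-induced repressor, was the 1 member that rose (0.30, SE 0.09), a call lost without replicate 3 or 4 (largest adjusted p = 0.216).

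Of 24 tested genes of the unfolded protein and heat shock responses 11 fell and 0 rose (median -0.14). Over all genes tested, 9.45% fell and 8.2% rose. Hspa1b, an inducible HSP70, fell by 0.64 (SE 0.08), Trib3, a pseudokinase induced by ATF4, by 0.47 (SE 0.05) and Herpud1, a component of endoplasmic reticulum degradation, by 0.33 (SE 0.05). Of 25 contractile genes and YAP targets 6 fell and 0 rose, among them F3, tissue factor (-0.37, SE 0.09), Ccn1, a matricellular YAP target (-0.35, SE 0.05), and Amotl2, an inhibitor of YAP (-0.35, SE 0.06). Of 24 cholesterol genes 5 fell and 0 rose, with Cyp51 (-0.38, SE 0.05) and Sqle (-0.33, SE 0.05), enzymes of the pathway to cholesterol, among them. Without replicates 3 and 4 in turn, 2 and 3 genes of the contractile and YAP list were lower and F3 was not called (adjusted p = 0.0902 and 0.0505). The cholesterol list had 8, 3 and 3 lower without replicates 1, 3 and 4. Lower calls over all genes tested numbered 1654, 647 and 725 in those fits, beside 1372 with no replicate left out.

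**Figure D3:**
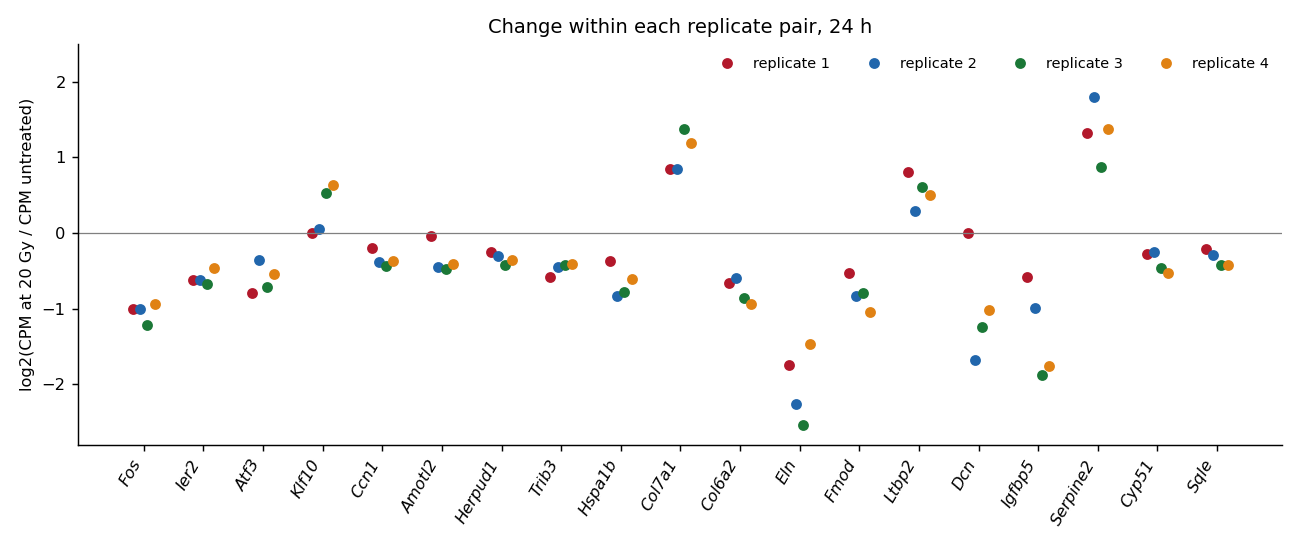
Log2 ratio of CPM at 20 Gy to CPM untreated within each replicate pair (colours) for 19 genes of the immediate early, stress, matrix, secretory and cholesterol lists. Fos, Ier2, Eln, Col6a2 and Igfbp5 are below 0 in each pair and Col7a1, Ltbp2 and Serpine2 above 0 in each, whereas Dcn is near 0 in replicate 1 only.

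The secretory genes linked to senescence had not risen as a group at 24 h: of 29 tested, 4 rose and 7 fell (median -0.04). Over all genes tested, 8.2% rose and 9.45% fell. Serpine2, a protease inhibitor, was at 9.68, 1.79, 15.6 and 7.33 CPM untreated and at 24.3, 6.22, 28.6 and 19.1 CPM at 20 Gy, higher in each pair (log2 change 1.26, SE 0.11, adjusted p = 5.87e-06). Igfbp5, a binding protein of insulin-like growth factors, was at 3.65, 5.28, 56.8 and 31.1 CPM untreated and at 2.44, 2.66, 15.4 and 9.18 CPM at 20 Gy, lower in each pair and most in replicates 3 and 4 (log2 change -1.53, SE 0.15, adjusted p = 1.99e-05). Il6, the interleukin most used as a marker of this phenotype, was at 4.89, 28.3, 65.7 and 50.2 CPM untreated and at 4.90, 25.1, 33.6 and 32.2 CPM at 20 Gy. Replicate 1 was level and the other 3 pairs were lower (log2 change -0.53, SE 0.11, adjusted p = 0.00561), and the call was lost without replicate 3 (adjusted p = 0.0817). The neutrophil chemokine gene Cxcl5 fell by 0.66 (SE 0.08) and Hgf, hepatocyte growth factor, by 0.65 (SE 0.10), while Il11 rose by a log2 change of 0.60 (SE 0.14), a call lost without replicate 4 (adjusted p = 0.106). Without replicate 1 the list had 7 higher and 11 lower, in a fit that called 1540 genes higher and 1654 lower in all. Mmp9, a gelatinase, was called higher (1.42, SE 0.28), but it was near the floor of 3 counts outside replicate 1, at 0.0616 to 0.189 CPM untreated.

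Of 29 tested interferon-stimulated genes 1 rose and 0 fell; it was Oasl1, an antiviral protein gene named after its value was seen, at 0.276 to 0.535 CPM untreated and 0.617 to 1.15 CPM at 20 Gy, and it was not called without replicate 3 or 4 (adjusted p = 0.0896 and 0.0714). Of 17 genes of MHC class I presentation 2 rose and 0 fell, beside 8.2% higher and 9.45% lower of all genes tested. They were the peptide transporter gene Tap1 (0.56, SE 0.09) and H2-D1 (0.26, SE 0.05), a class I heavy chain with near-identical relatives whose reads are uncertain. Among 26 antioxidant and glutathione genes 4 rose and 6 fell. Sod3, the extracellular superoxide dismutase, was at 2.72, 8.62, 24.2 and 24.9 CPM untreated and at 0.617, 2.37, 6.12 and 6.06 CPM at 20 Gy, lower in each pair by a similar factor (log2 change -1.99, SE 0.09, adjusted p = 8.86e-08, and 0.47 without the pairing). Nqo1, a quinone reductase under NRF2 control, rose by a log2 change of 0.57 (SE 0.09), and Gsta4, a glutathione transferase, fell by 0.68 (SE 0.11). The respiratory chain list had 2 of 31 genes higher and 0 lower, the lysosome list 2 of 31 and 1, and ribosome biogenesis 1 of 24 and 2. With no replicate left out, these shares of called genes were below those of all genes tested. Without replicate 1 these counts were 5 and 0, 3 and 5, and 6 and 1, beside 1540 and 1654 over all genes tested. In that fit the lysosome and ribosome lists no longer held a lower share of called genes than all genes tested. Without replicate 2 the respiratory list had 1 and 0. Without replicate 3 the respiratory and ribosome lists had 0 and 0, and 0 and 1, and without replicate 4 both had 0 and 0.

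Ranked by size among genes of at least 5 CPM that moved one way in each pair, the largest rises after those above were Celf5, an RNA-binding protein gene (1.79, SE 0.14), Acsbg1, a fatty acyl-CoA synthetase gene (1.54, SE 0.19), Igsf9b, an adhesion molecule gene (1.47, SE 0.13), and Icam1, the leukocyte adhesion receptor. Icam1 was at 2.17, 1.76, 2.37 and 1.97 CPM untreated and at 3.63, 4.29, 7.53 and 7.69 CPM at 20 Gy, with replicates 3 and 4 the highest and no overlap (log2 change 1.45, SE 0.17). The chloride channel relatives Ano3 (1.39, SE 0.13) and Ano1 (1.27, SE 0.13) were also among the 10 largest. The largest falls were those of Il1rn, the interleukin-1 receptor antagonist (-2.39, SE 0.18), Col28a1, a collagen of the von Willebrand domain family (-2.21, SE 0.18), and Sod3, described above, followed by Lgi2, a secreted leucine-rich repeat protein gene (-1.93, SE 0.31), Aspn, which encodes the small proteoglycan asporin (-1.76, SE 0.17), and Sfrp1, a secreted inhibitor of WNT. Sfrp1 was at 39.6, 228, 1029 and 692 CPM untreated and at 16.1, 70.1, 324 and 163 CPM at 20 Gy. The 4 animals spanned a wide range before irradiation and each fell (log2 change -1.72, SE 0.09, adjusted p = 8.86e-08, and 0.65 without the pairing). Col28a1 and Il1rn differed between animals in the same way, with replicate 1 lowest in the untreated group.

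The irradiated libraries also held more kinds of transcript. With each library thinned to 27.9 M counts, 20989 to 21427 genes were detected untreated and 22003 to 22593 at 20 Gy, with no overlap. Among 1944 tested genes not annotated as protein-coding 117 rose and 22 fell, which is 6.02% and 1.13%, beside 8.54% and 10.7% of protein-coding genes. The share called higher was thus below that of protein-coding genes, and the share called lower was further below it. Their median log2 change was 0.11, beside -0.01 for protein-coding genes. Mitochondrial transcripts took 1.36 to 1.89% of counts untreated and 1.68 to 2.52% at 20 Gy, higher in each pair, and the groups overlapped. The part of this shift in the changes of single genes was not tested.

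The same animals at 10 Gy show which changes grew with dose. The 10 Gy and 20 Gy comparisons with untreated cells share their untreated libraries, so their values are given side by side and only the difference between 20 and 10 Gy is tested. Against untreated cells 1646 of 14280 genes (11.5%) were called at 10 Gy, 774 higher (5.42%) and 872 lower (6.11%), and between 20 and 10 Gy 211 of 14644 genes (1.44%) were called, 163 higher (1.11%) and 48 lower (0.328%). Without the pairing 0 genes passed between the doses by edgeR, and 277 had an unadjusted p under 0.05 by edgeR. By DESeq2, with the pairing, 133 passed. Without replicates 1 to 4 in turn the counts were 3400, 812, 509 and 986 for 10 Gy against untreated and 409, 99, 79 and 85 between the doses.

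Some p53 targets were higher at 20 than at 10 Gy, and others did not pass between the doses. Mdm2 rose by a log2 change of 0.86 at 10 Gy and 0.98 at 20 Gy, and Cdkn1a by 0.42 and 0.48. The differences of 20 from 10 Gy were 0.12 (SE 0.03, adjusted p = 0.0672) for Mdm2 and 0.07 (SE 0.03, adjusted p = 0.418) for Cdkn1a. Pmaip1 (0.37, adjusted p = 0.00151), Pidd1 (0.31, adjusted p = 0.0299) and Ddias, an inhibitor of damage-induced death (0.41, adjusted p = 4.54e-05), were higher at 20 than at 10 Gy, and the call of Pidd1 was lost without replicate 2, 3 or 4 (largest adjusted p = 0.307). Of the 16 genes of p53 feedback and arrest 3 were higher at 20 than 10 Gy, and of the 16 death genes 2. Over all genes tested between the doses, 1.11% were higher at 20 Gy.

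The mitotic genes set the doses apart. Of 41 genes of the mitosis list, 33 were higher at 20 than at 10 Gy and 0 were lower (median difference 0.26), beside 1.11% of all genes. Against untreated cells 11 of them were lower and 1 higher at 10 Gy (median -0.16), while at 20 Gy 2 were lower and 11 higher. Of 35 replication genes, 14 were lower and 0 higher at 10 Gy, and 5 were higher at 20 than 10 Gy. Against untreated cells, 5.42% of all genes tested were higher and 6.11% lower at 10 Gy. At 20 Gy the shares were 8.2% and 9.45%. Top2a was at 200, 181, 217 and 211 CPM at 10 Gy and at 251, 257, 314 and 270 CPM at 20 Gy, without overlap (difference 0.43, adjusted p = 5.37e-06). Nusap1, a spindle protein gene of the same list chosen after its value was seen as the member with the largest difference, was at 24.9, 24.2, 29.9 and 25.8 CPM at 10 Gy and at 34.5, 40.7, 44.98 and 37.2 CPM at 20 Gy (difference 0.58). Ckap2 (0.48), Ube2c (0.44) and Aurka (0.40) differed likewise, each higher at 20 Gy. Mki67 did not pass between the doses (0.02, adjusted p = 0.897).

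Interferon-stimulated genes went the other way between the doses. At 10 Gy 8 of 29 were higher than untreated, and 9 were lower at 20 than at 10 Gy (median difference -0.34). The shares over all genes tested were 5.42% and 0.328%. Ifit1, an antiviral protein gene chosen after its values were seen, was at 1.58, 0.629, 2.005 and 2.28 CPM untreated, at 3.64, 5.76, 9.09 and 8.31 CPM at 10 Gy and at 1.03, 1.91, 1.995 and 2.17 CPM at 20 Gy. Each 10 Gy library was above each library of the other doses.

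**Figure D4:**
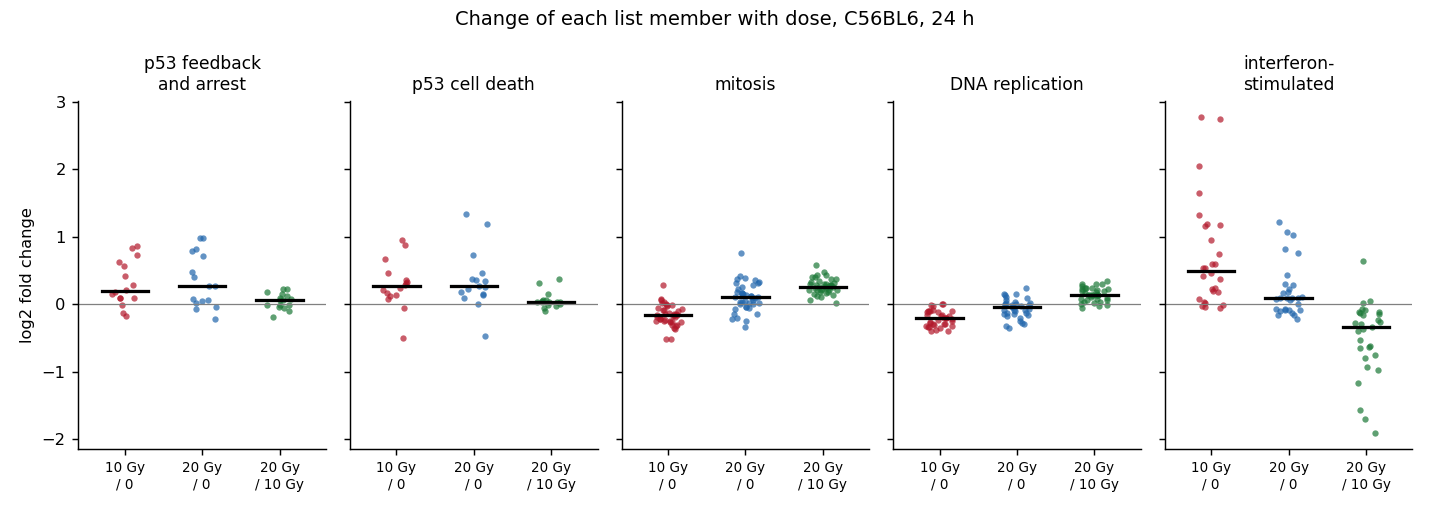
Log2 fold change of each tested member of 5 gene lists at 10 Gy against untreated, 20 Gy against untreated and 20 Gy against 10 Gy, 24 h; bars mark the medians. The mitosis and replication members lie lower at 10 Gy than at 20 Gy, and the interferon-stimulated members lie higher at 10 Gy, whereas the p53 lists have similar medians at both doses.

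Promoters of mitotic genes commonly carry a cell cycle homology region (CHR) near CCAAT boxes, through which p53 signalling represses them. The letters TTTGAA or TTCGAA, on either strand, occurred in the promoter of 26 of 34 mitosis genes with one in the RefSeq table (76.5%), of 68 of 140 genes higher at 20 than 10 Gy (48.6%), of 21.7% of all genes in the table and of 16.3% of tested genes. At least 2 copies of CCAAT, on either strand, occurred in 41.2% of the mitosis genes and in 42.9% of the genes higher at 20 Gy than at 10 Gy. The shares were 13.3% of all genes in the table and 16.6% of tested genes. The genes higher at 20 than 10 Gy include 33 of the mitosis list, so these sets overlap. The promoters of 2 members described above are printed to show these letters, with the CHR and CCAAT matches in capitals, in GRCm38.p6.
Aurka (chr2:172370521-172370820, minus strand): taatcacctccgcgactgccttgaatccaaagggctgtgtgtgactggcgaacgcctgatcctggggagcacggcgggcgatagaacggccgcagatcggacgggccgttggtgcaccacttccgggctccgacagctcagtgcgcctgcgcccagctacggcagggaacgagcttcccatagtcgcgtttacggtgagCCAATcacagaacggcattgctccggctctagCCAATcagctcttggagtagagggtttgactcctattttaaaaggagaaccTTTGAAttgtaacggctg
Ube2c (chr2:164769679-164769978, plus strand): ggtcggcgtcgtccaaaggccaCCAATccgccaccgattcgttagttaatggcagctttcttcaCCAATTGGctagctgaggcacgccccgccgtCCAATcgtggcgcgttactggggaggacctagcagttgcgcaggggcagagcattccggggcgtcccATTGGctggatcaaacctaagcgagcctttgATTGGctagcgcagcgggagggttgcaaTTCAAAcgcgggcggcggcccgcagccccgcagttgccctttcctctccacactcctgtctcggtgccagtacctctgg
In Ube2c a pair of CCAAT matches overlap on opposite strands, and its CHR letters are read on the minus strand. These are matches of letters and show no binding.

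At 12 d after irradiation many of the 24 h changes were seen again in libraries of the same 4 animals. Those libraries are of batch B2, so the time and the batch cannot be told apart, and values of the 2 times are set side by side without a test between them. The untreated side at 12 d was the culture labelled untreated, not that labelled untreated passaged. At 12 d 7182 of 15119 genes (47.5%) were called at 20 Gy, 3509 higher (23.2%) and 3673 lower (24.3%). Of 1155 genes called higher at 24 h and tested at 12 d, 677 (58.6%) were higher and 103 (8.92%) lower. Of 1370 called lower, 745 (54.4%) were lower and 126 (9.20%) higher. Over all genes tested at both times 22.8% were higher and 25.04% lower at 12 d. Mdm2 (log2 change 1.74 at 12 d), Pmaip1 (2.45), Gdf15 (2.73) and Cdkn1a (0.91) were higher at 12 d, as at 24 h. Genes of division stood otherwise: 25 of 41 mitosis genes were lower at 12 d and 0 higher (median -1.004). Mki67 (-1.34), Top2a (-1.28) and Ube2c (-1.10), which were not called lower at 24 h, were lower at 12 d. Without replicate 2 or 4 Mki67 and Ube2c were not called at 12 d (largest adjusted p = 0.0755 and 0.105). In the secretory list 14 of 29 were higher at 12 d and 7 lower. Il6 was higher at 12 d (1.26) and Atf3 too (2.09), both lower at 24 h, while Sfrp1 (-2.07), Eln (-2.64) and Col6a2 (-2.35) were lower at both times.

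Few genes passed the test for a difference between the responses of C56BL6 and wild mouse cells, which does not show that the other genes responded alike. The difference between the 20 Gy changes passed for 102 of 15612 genes (0.653%), 90 higher in wild mice (0.576%) and 12 lower (0.0769%). The count was 806, 2, 10 and 17 without replicates 1 to 4 in turn, and 0 without the pairing by edgeR, where 247 genes had an unadjusted p under 0.05. Islr, a secreted stromal protein gene, fell in C56BL6 cells (-1.47, SE 0.09) while its log2 change was 0.02 in wild cells (difference 1.47, adjusted p = 0.00554). Sod3 (difference 1.18, adjusted p = 0.00854) and Gsta4 (1.47, adjusted p = 0.0105) also differed, with more negative changes in C56BL6 cells. Of the mitosis list 2 of 41 differed, both with the more negative change in wild cells, and 1 was Cenpf, a kinetochore protein gene (log2 change 0.16 in C56BL6 and -0.75 in wild cells, difference -0.91, adjusted p = 0.0392). Lmnb1 differed too (-0.65, adjusted p = 0.045). These 5 differences passed without replicate 1. Without replicate 2 none did (adjusted p = 0.0513 to 0.231), without replicate 3 Islr and Sod3 did, and without replicate 4 only Islr did (0.0444). Of the p53 lists 1 member differed, Psrc1, a spindle protein gene named after its value was seen, with a log2 change of 0.27 in C56BL6 and 1.19 in wild cells (difference 0.92, SE 0.17, adjusted p = 0.0298). It was not called without replicate 2, 3 or 4 (largest adjusted p = 0.188). Differences that did not pass were 0.80 for Cdkn1a (SE 0.21, adjusted p = 0.11) and 0.31 for Mdm2 (SE 0.20, adjusted p = 0.547).

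A. cahirinus cells differed from C56BL6 cells in more genes, among them most of the division genes. The 20 Gy changes were compared through 18109 symbols found once in each species' table, and 2280 of 13589 (16.8%) differed, 1196 higher in A. cahirinus (8.8%) and 1084 lower (7.98%). Without the pairing the count was 284, 27 higher and 257 lower, and it was 973 without replicate 3 and 979 without replicate 4. The change was lower in A. cahirinus for 40 of 41 mitosis genes (median difference -1.73), 33 of 35 replication genes (-0.97), 21 of 32 recombination and Fanconi genes and 13 of 17 cyclins and kinases. The median log2 change of the mitosis list at 20 Gy was 0.10 in C56BL6 cells, -0.40 in wild cells and -1.53 in A. cahirinus cells. Ccnb2, cyclin B2, had a log2 change of 0.22 in C56BL6 and -2.09 in A. cahirinus cells (difference -2.31, adjusted p = 1.15e-06), and E2f8, a repressive E2F, one of -0.02 against -2.33 (difference -2.31, adjusted p = 2.86e-08). Mki67 differed by -1.85 (adjusted p = 5.53e-07) and Lmnb1 by -1.61 (adjusted p = 1.42e-07).

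The p53 targets differed between the species in both directions. Cdkn1a rose more in A. cahirinus cells (log2 change 1.32 against 0.48 in C56BL6, difference 0.83, adjusted p = 7.46e-05), as did Eda2r (difference 1.48) and Ccng1 (0.67), whereas Pmaip1 (-1.003), Pidd1 (-0.67) and Gtse1 (-1.34) had the lower change there, that of Pmaip1 not past the threshold without replicate 3 (adjusted p = 0.0592). Mdm2 had a difference of -0.05 (SE 0.08, adjusted p = 0.745). Several other lists had more genes with the higher change in A. cahirinus, which was so for 13 of 23 immediate early genes, 14 of 28 matrix glycoproteins and 14 of 25 contractile genes and YAP targets, with 0, 3 and 0 lower. The shares over all genes tested were 8.8% higher and 7.98% lower. The unfolded protein and heat shock list had 7 of 23 higher and 4 lower (median difference 0.02). Fos differed by 1.13 (adjusted p = 1.47e-05), Sfrp1 by 1.67 (adjusted p = 1.22e-06) and Dcn by 1.63 (adjusted p = 4.07e-06).

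**Figure D5:**
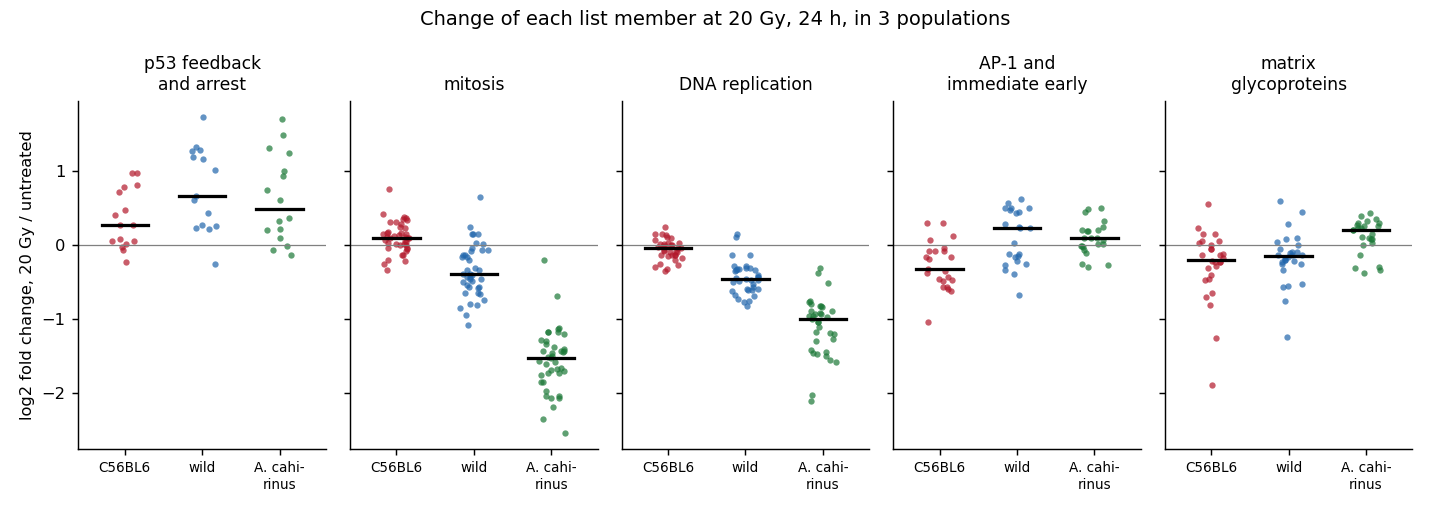
Log2 fold change at 20 Gy against untreated, 24 h, of each tested member of 5 gene lists in C56BL6, wild mouse and A. cahirinus fibroblasts; bars mark the medians. Members of the mitosis and replication lists lie near 0 in C56BL6 cells and well below it in A. cahirinus cells, with medians of -1.53 and -1.01.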

How the data were processed

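RNA of primary skin fibroblasts was sequenced by the authors, and the deposited values are raw counts of reads per gene. Per the submitters' processing notes, Trim Galore, HISAT2 and featureCounts were used with GRCm39, and per the file headers the counter was featureCounts 2.0.3 with no strand option, leaving out reads that map to several places or lie in overlapping genes; overlapping, antisense and near-identical genes are uncertain for this reason. Gene lengths, other values deposited by the authors, entered no test. GENCODE vM39 gave a symbol for 56236 of 56980 gene identifiers, and 0 count columns were left unused.

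Libraries of the groups compared were fitted with edgeR 4.0.16 in R 4.3.3: filterByExpr, TMM scaling, the quasi-likelihood test with the animal as a block, and Benjamini-Hochberg adjustment over all genes tested, with a threshold of 0.05. Log2 changes are fitted values. Each standard error (SE) was derived as the absolute log2 change over the square root of the F statistic of its test. CPM values use TMM factors of the 12 libraries at 24 h. Libraries with the same number deviated together from the mean of their group, with correlations across genes of 0.675 to 0.848, and the pairing comes from the animal codes in the library names. The variance between library pairs within a group was 12.5 to 127 times that of sampling noise.

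Differences between populations were tested as interactions with the animal as a block. Members, 24 gene lists of 630 genes, 9 marker lists and tests were chosen with earlier results of these data known. Genes were named by rule: in each list the 3 largest called changes in each direction, at 1 CPM or more in 1 group; the 10 largest rises and falls at 5 CPM or more with 1 direction in each pair; every gene past the threshold without the block; a panel of 10; and 5 per direction for each interaction. Not every gene the rule names is described. Alternatives were RLE size factors, no expression filter, no replicate block, the Wald test of DESeq2 1.42.0, all 3 doses in 1 fit, and leaving out each replicate number.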

Additional observations from a re-analysis of the deposited data

Results flagged for a closer look

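In groups of 4 libraries, 1 library was far from the other 3 in 8 of the 176 groups tested, formed by 88 named genes at 2 doses; chance alone flags about 1 group in 20. Replicate 1 was the outlying library in 5 of them, replicate 2 in 1 and replicate 3 in 2. In replicate 1 Dram1 was at 7.24 CPM at 20 Gy against 14.5 to 15.5 CPM in the others, Ltbp2 at 224 CPM untreated against 556 to 605 CPM, and Hspa1b at 20.99 CPM at 20 Gy against 8.6 to 10.7 CPM. Mmp9 was at 1.69 CPM untreated and 4.18 CPM at 20 Gy in replicate 1, against at most 0.189 and 0.405 CPM in the others. Col8a2 was at 4.65 CPM in untreated replicate 2 against 2.70 to 2.89 CPM. In untreated replicate 3 Nqo1 was at 75.5 CPM against 59.7 to 60.96 CPM and Alox5 at 0.146 CPM against 0.0616 to 0.0689 CPM.

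The change at 20 Gy differed between populations for 102 genes (wild mice) and 2280 genes (A. cahirinus). Among the largest differences of wild mice from C56BL6, as log2 differences of the change, were those of Prl2c3 (2.77) and Prl2c2 (2.49), near-identical prolactin family genes whose reads are uncertain, Megf10 (1.56), Islr (1.47) and Gsta4 (1.47). In the other direction they were Cenpf (-0.91), Espl1 (-0.75), Myo7a (-0.75), Col11a1 (-0.69) and Lmnb1 (-0.65). For A. cahirinus they were Smoc1 (5.01), Degs1 (2.46), Col28a1 (2.32), Podnl1 (2.21) and Aspn (2.16), and Gucy1a2 (-2.88), Depdc1a (-2.36), Sgo2a (-2.33), E2f8 (-2.31) and Ccnb2 (-2.31). Smoc1, Degs1, Col28a1, Podnl1, Aspn and Gucy1a2 did not pass the expression filter in the fit of A. cahirinus alone.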

How the results depend on the processing

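The replicate block decided most counts. With no replicate block, genes past the threshold numbered 13 in place of 2563 (20 Gy against untreated), 0 in place of 211 (20 against 10 Gy), 1 in place of 1646 (10 Gy against untreated), 4010 in place of 7182 (12 d), 0 in place of 102 (wild mice) and 284 in place of 2280 (A. cahirinus), and all 24 list counts moved by over 1.5 times. Leaving out 1 replicate number gave 1235 to 3194, 79 to 409, 509 to 3400, 4857 to 7941, 2 to 806 and 973 to 2911 in the same order. With no expression filter 355 genes passed between the doses and 799 for wild mice, and DESeq2 called 133 between the doses. Of 84 named genes that were called, 71 lost the call without the block, 6 by DESeq2, and 1, 3, 11 and 9 without replicates 1, 2, 3 and 4. RLE size factors and all 3 doses in 1 fit changed none of these 84 calls, and RLE moved no list count by over 1.5 times. DESeq2 moved 4 of 24 list counts, homologous recombination and Fanconi from 6 to 2, ATM signalling and end joining from 6 to 3, interferon-stimulated from 1 to 0 and respiratory chain from 2 to 1, and all 3 doses in 1 fit moved 1, ribosome biogenesis from 3 to 5. Lmnb1, not called, had a change of -0.09 that ranged from -0.16 to 0.0083 with 1 replicate left out.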
